A study of Mus musculus with 8 samples.

Results

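Postcapillary venous endothelial cells (ECs), called venous ECs from here on, were taken from 8 single-cell RNA libraries of sorted CD45-negative CD31+ tumour ECs. A cell was counted as a venous EC when it had 1000 or more genes above 0, Pecam1 above 0 and at least 2 of the venous genes Ackr1, Selp, Cysltr1 and Masp1 above 0. It was left out when 3 or more of the large-vein genes Cpe, Klk8, Olr1, Tmem108, Adh1 and Fmo2, or 2 or more of the mitosis genes Mki67, Top2a and Birc5, were above 0. The rule gave 1152 venous ECs among 8204 deposited cells. The authors removed cell types without Pecam1, and in every library their final number of cells was below the deposited number. Another 4755 cells passed the conditions on gene number, Pecam1 and mitosis without being venous ECs, and they are called other ECs.

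The study compared spontaneous with implanted breast tumours, and an intratumoural injection of PBS with one of cGAMP, a cyclic dinucleotide that activates the innate immune sensor STING. Spontaneous tumours arose in female mice carrying the MMTV-PyMT transgene, in which a mammary tumour virus promoter drives an oncogene in mammary epithelium. Implanted tumours came from cells of such tumours, which were cultured for a short time and put in Matrigel into the mammary fat pad of female mice without the transgene. Tumours were taken 3 h after the injection. Crossing tumour model with injection gives 4 groups, each of 2 libraries, with cells from 2 mice per group. The labels give adult c57bl/6 for every library. The methods name an FVB/N background for the transgenic mice and FVB hosts for the implanted tumours, so the strain is not settled. The spontaneous PBS libraries gave 182 and 87 venous ECs, the spontaneous cGAMP libraries 117 and 141, the implanted PBS libraries 153 and 166, and the implanted cGAMP libraries 247 and 59. These numbers are sizes of the samples behind each mean, since a cell had to show 2 marker genes to be counted and the markers themselves moved with treatment.

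Postcapillary venules lie just downstream of the capillaries, and they are the main site at which leukocytes leave the blood and at which plasma leaks in inflammation. Their ECs display selectins and chemokines to passing leukocytes, store P-selectin together with von Willebrand factor in Weibel-Palade bodies, and carry the atypical chemokine receptor ACKR1, which binds chemokines and moves them across the cell. STING signalling switches on type I interferon and NF-kB target genes, among them the chemokines that guide T cells.

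Levels are given per library as the mean over its venous ECs in CPM, a rate per cell and per fixed total of UMIs, where a UMI is 1 counted RNA molecule. Differences are on the log2(mean CPM + 1) scale, which understates the change of low genes, with their standard error (SE) and the Benjamini-Hochberg adjusted p of limma, fitted over the 8 libraries with 2 per group. A p that misses the threshold does not show that levels were alike. The venous ECs held 1266094 to 3504603 UMIs per library. Median depth per cell was 9876 UMIs for replicate 1 of implanted cGAMP and 23201 for replicate 2, and 12308 to 18085 in the other libraries. Other ECs had medians of 7506.5 to 14912 UMIs, below the venous ECs of the same library in all 8 libraries. A shallow cell can miss a marker and so count among other ECs. The part of depth in comparisons of the classes was not tested beyond reading markers at 2000 UMIs per cell. No cell barcode of a venous EC was shared between libraries, and 7 barcodes in all were shared among the 28 pairs of libraries.

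Replicate 1 of implanted cGAMP stood apart. In it 93 of 247 venous ECs (37.7%) carried 3 or more markers of mural cells, fibroblasts or leukocytes, against 2 to 20 cells (1.96% to 14.2%) in the other 7 libraries. The next highest were the spontaneous cGAMP libraries, with 13 of 117 and 20 of 141 cells. Within replicate 1 of implanted cGAMP these 93 cells had a mean of 952 CPM of the smooth-muscle actin gene Acta2 against 39.7 CPM in the other venous ECs, 515 against 12.4 CPM of the collagen gene Col3a1, and 4020 against 15052 CPM of the nuclear RNA Malat1. They also held 889 CPM of the pan-endothelial gene Pecam1 against 1146, and 940 CPM of Cdh5 (VE-cadherin) against 1131. Each result was therefore also computed without such cells and without this library. Acta2 and Col3a1 are on the lists by which these cells were chosen. For genes of the mural, fibroblast and leukocyte lists, a call lost without such cells is no test, because those genes chose the cells.

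The rule chose cells by the genes Ackr1, Selp, Cysltr1 and Masp1, so their high level is the choice itself and is given without a test. Ackr1 (chromosome 1, 173331886 to 173333750, minus strand, GRCm38) stood at 503 and 590.2 CPM in spontaneous PBS, 679 and 595 in spontaneous cGAMP, 1039.9 and 857 in implanted PBS and 2009.7 and 1171 in implanted cGAMP. Selp, which codes for P-selectin (chromosome 1, 164115264 to 164150026, plus strand), stood at 819 and 1010.4 CPM in spontaneous PBS, 545 and 438 in spontaneous cGAMP, 1156 and 1043 in implanted PBS and 888 and 616 in implanted cGAMP. Cysltr1, a receptor for cysteinyl leukotrienes (chromosome X, 106574346 to 106603679, minus strand), stood at 100.3 and 118 CPM in spontaneous PBS, 62.1 and 52 in spontaneous cGAMP, 91.7 and 72.6 in implanted PBS and 38.3 and 35.9 in implanted cGAMP. In Selp and Cysltr1 each cGAMP library lay below both PBS libraries of its model, and in Ackr1 each implanted cGAMP library lay above both implanted PBS libraries.

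Masp1, a protease of the lectin pathway of complement (chromosome 16, 23449417 to 23520815, minus strand), stood at 66 and 74.8 CPM in spontaneous PBS, 77.1 and 73.1 in spontaneous cGAMP, 82.7 and 72.5 in implanted PBS and 55.4 and 48.1 in implanted cGAMP. It was the flattest of these markers, with only the implanted cGAMP libraries below the rest. Of the 1152 venous ECs, 1061 had Ackr1, 1120 had Selp, 487 had Cysltr1 and 457 had Masp1 above 0. The most common combination was Ackr1 with Selp alone (438 cells), and 212 cells had all 4 genes. The choice therefore rests mostly on Ackr1 and Selp.

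**Figure D1:**
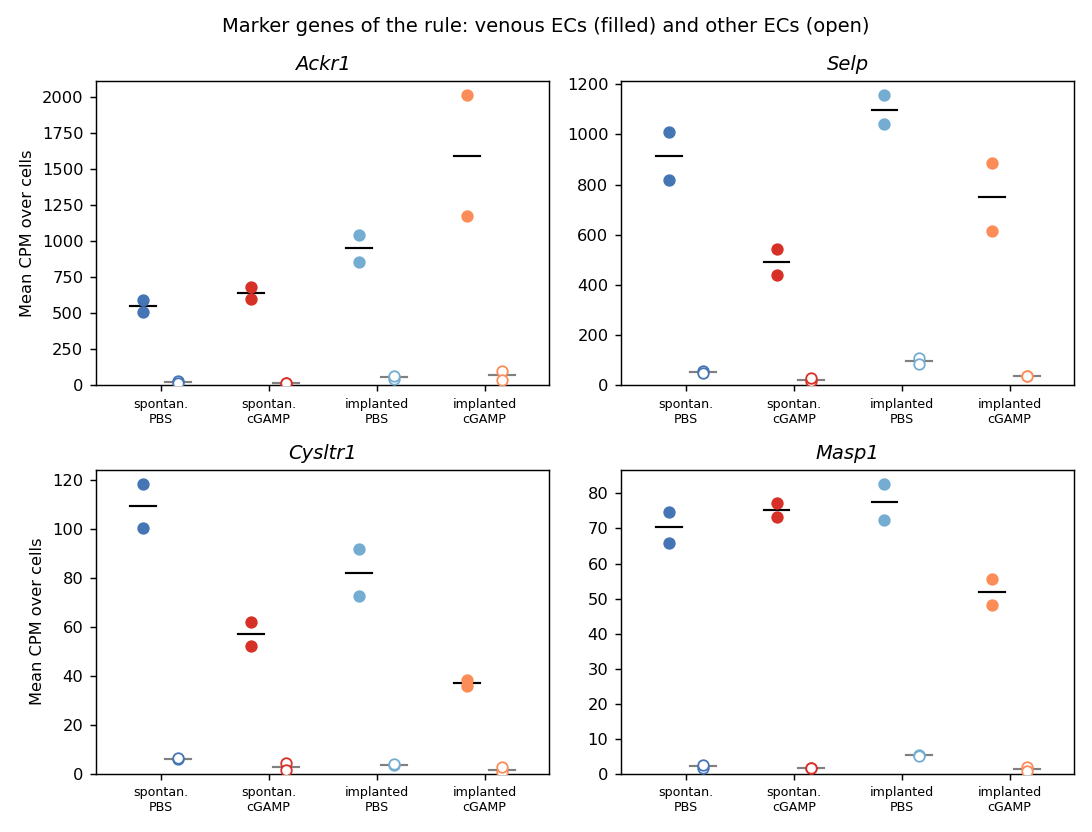
Mean CPM over cells of the genes of the rule (linear axis from 0) in each library, with venous ECs as filled and other ECs as open points and short lines as group means of 2 libraries. Selp ran from 438 to 1156 CPM and Ackr1 from 503 to 2010 CPM in venous ECs, and Selp and Cysltr1 were lower in every cGAMP library than in the PBS libraries of the same model.

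Cells just inside and just outside the threshold were described without a test. The 543 venous ECs with exactly 2 markers had a median over libraries of 392 CPM of Vwf (von Willebrand factor) and 83.5 CPM of Sele (E-selectin). The 730 cells with exactly 1 marker, which are other ECs, had 94.5 CPM of Vwf and 27.1 CPM of Sele, and the 3855 cells with no marker had 45.7 and 2.12 CPM. Among the 397 cells with 3 markers Vwf reached 543 CPM and Sele 92.6 CPM, and among the 212 cells with 4 markers they reached 740.03 and 114 CPM. Both genes, which the rule did not use, rose with the number of markers in these medians, but Sele was lower with 3 than with 2 markers in 5 of 8 libraries. In replicate 1 of implanted cGAMP the 131 cells with 2 markers had a median of 4785 UMIs, and the 87 with 3 markers 16503. Their means of the lymphatic gene Ccl21a were 411 and 7.47 CPM. A further 140 cells had enough venous markers but were left out for their large-vein genes. All cells with 3 or more large-vein genes, with or without enough venous markers, had medians of 1488 CPM of Vwf, above the cells with 4 markers, and 77.5 CPM of Sele.

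The label was checked against marker lists of endothelial segments that the rule did not use. The 25 further venous genes summed to 8160 to 12990 CPM in venous ECs and to 4372 to 5729 CPM in other ECs, and 19 of the 25 were higher in venous ECs in all 8 libraries. Nr2f2, the transcription factor that sets venous identity, stood at 232 and 287 CPM in spontaneous PBS, 195 and 239.8 in spontaneous cGAMP, 265 and 279.7 in implanted PBS and 217 and 176 in implanted cGAMP, and in other ECs it ran from 90.6 to 124 CPM. The 15 arterial genes were each lower in venous ECs in all 8 libraries, with sums of 541 to 982 CPM against 1865 to 3806 CPM. The share of all genes with the same direction in all 8 libraries was not counted, so these counts have no background beside them. The 10 lymphatic genes summed to 32.9 to 445 CPM against 666 to 2483 CPM, and the 14 tip-cell genes to 3069 to 5285 CPM against 5269 to 8035 CPM. The 15 capillary genes did not separate the cells, with sums of 3295 to 12651 CPM against 5368 to 11073 CPM, higher in venous ECs in 5 of 8 libraries. The venous, arterial and lymphatic lists thus went with the venous part of the label, while the term postcapillary was not set apart from capillary by these lists, and the term stalk-like was not checked, because no stalk list was set. High venous genes were not particular to these cells. Cells with 3 or more large-vein genes had a median venous sum of 13108 CPM, against 11322 CPM in cells with 4 markers. Their median of Nr2f2 was 352 against 250 CPM.

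The lists of other cell types were read for mixed signal. The 10 mural genes summed to 242 to 1252 CPM in venous ECs and were highest in replicate 1 of implanted cGAMP. In other ECs they summed to 144 to 1018 CPM, and venous ECs were higher in 5 of 8 libraries. The mural list holds Tagln, which ran from 99.4 to 619 CPM in venous ECs and from 40.7 to 125 CPM in other ECs. Tagln was higher in venous ECs in all 8 libraries, so the mural sum is not a plain measure of mixed cells. The 8 fibroblast genes summed to 90.5 and 71.6 CPM in the spontaneous cGAMP libraries and to 309 CPM in replicate 1 of implanted cGAMP, and to 5.81 to 18.5 CPM in the other 5. The 12 leukocyte genes summed to 270 CPM in replicate 1 of implanted cGAMP and to 6.54 to 105 CPM elsewhere. No gene of these 3 lists was at 0 in all libraries. The 10 epithelial and tumour genes summed to 204 to 886 CPM in venous ECs and to 346 to 1959 CPM in other ECs. In spontaneous tumours 113 of 182 and 52 of 87 venous ECs carried 3 or more of them after PBS, and 97 of 117 and 113 of 141 after cGAMP. In implanted tumours 82 of 153 and 70 of 166 did after PBS, and 107 of 247 and 21 of 59 after cGAMP. The part of these cells in the comparisons of the models was not tested. The results without other-type cells still hold these cells.

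Among genes at 20 CPM or more in venous ECs and higher there in all 8 libraries, Sele had the greatest mean excess. The genes of the rule were left out. Sele, the gene of the E-selectin that slows rolling leukocytes, ran from 56.03 to 140.1 CPM in venous ECs and from 2.28 to 19.7 CPM in other ECs, a mean of 10.2-fold higher. Cd14, a co-receptor for bacterial lipopolysaccharide, ran from 113 to 463 CPM against 13.1 to 54.1 CPM (9.08-fold). Vwf ran from 235 to 852 CPM against 29.4 to 249 CPM (5.06-fold), and Hdc, the enzyme that makes histamine, from 62.9 to 459 CPM against 10.5 to 87.4 CPM (4.9-fold). That each of these genes lay above its level in other ECs in all 8 libraries was a condition of the choice, not a finding.

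The other genes of this kind included the cytokine gene Csf3 (granulocyte colony-stimulating factor, 8.02-fold), the leptin receptor Lepr (4.49-fold), the matrix proteoglycan Vcan (4.99-fold), the metalloprotease Tll1 (4.86-fold), the adhesion G protein-coupled receptor Adgrg6 (7.16-fold) and Lgals3 (galectin 3, 4.11-fold). At the other end, the genes with the lowest level in venous ECs relative to other ECs included genes of lymphatic and arterial ECs. The lymphatic chemokine gene Ccl21a was 118-fold and Lyve1 29.3-fold higher in other ECs, and Ccl21a reached 221 CPM in the venous ECs of replicate 1 of implanted cGAMP against 0 to 31.4 CPM elsewhere. The arterial genes Sema3g, Gja4, Gja5 and Unc5b were 62.0-fold, 59.0-fold, 42.7-fold and 35.04-fold higher in other ECs. The tip-cell gene Esm1 was 29.7-fold higher there, St8sia6 28.8-fold and Nebl 23.4-fold. These differences follow from how the cells were chosen and carry no test.

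**Figure D2:**
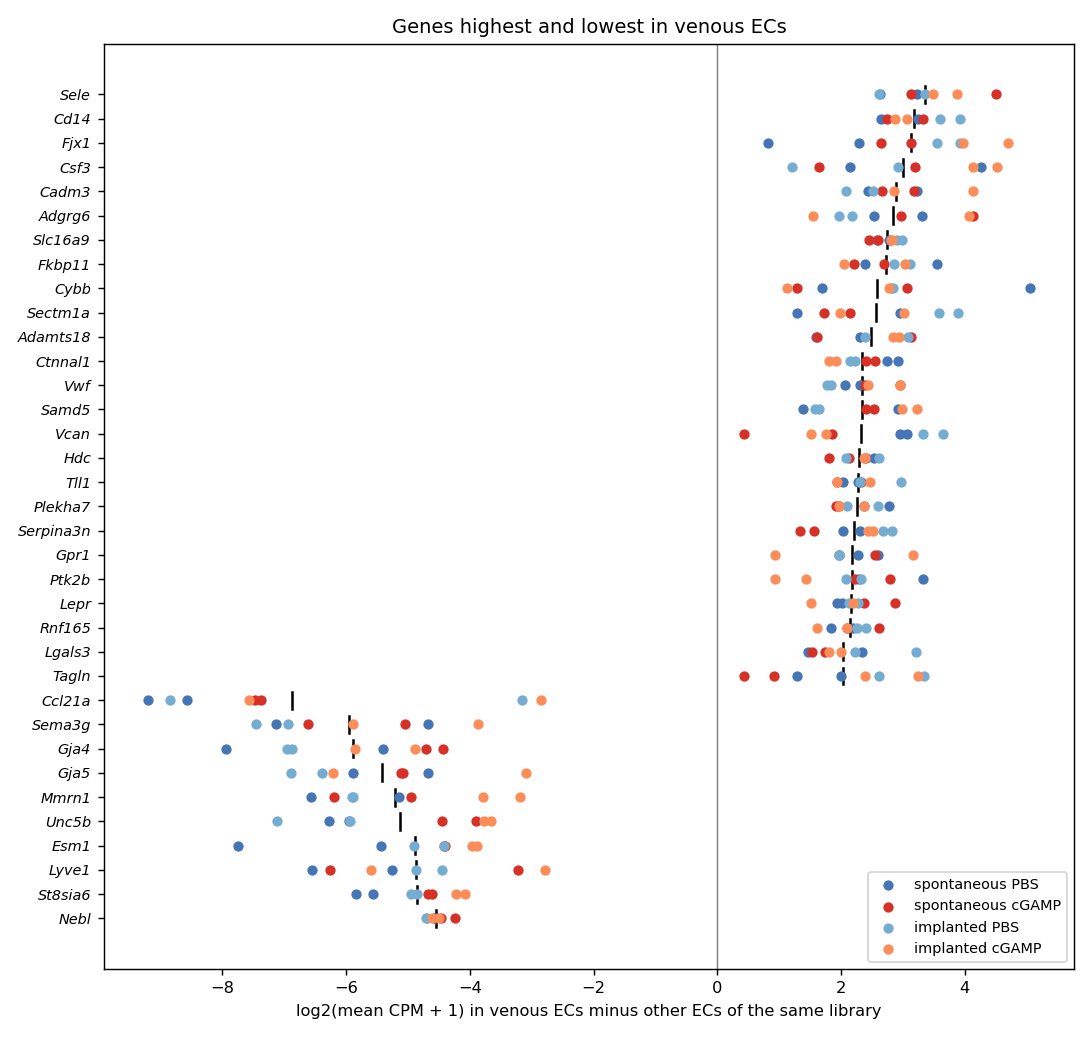
Difference in log2(mean CPM + 1) between venous and other ECs of the same library, for the 25 genes with the highest and the 10 with the lowest mean difference over 8 libraries, the genes of the rule left out. Each point is a library coloured by group, and short lines are means. Upper genes were taken only if all their points lay above 0, and lower genes only if all lay below 0. The points of Sele lie between 2.62 and 4.51.

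The cGAMP response of venous ECs in spontaneous tumours was a rise of interferon target genes. All 31 tested genes of the type I interferon list rose, and so did 28 of the 29 tested genes of antigen presentation and interferon-gamma response. In the same cells 9 of 25 venous list genes fell. At an adjusted p under 0.05, limma called 633 of 10237 genes (6.18%), of which 410 rose (4.01%) and 223 fell (2.18%). With median-of-ratios scaling 74.9% of the calls were higher, against 64.8% here.

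Among the chemokines, Ccl5, which attracts T cells and monocytes, rose most. It stood at 0.624 and 0 CPM in the PBS libraries and 1253 and 933 CPM in the cGAMP libraries, a log2 change of 9.73 ± 0.26 SE, adjusted p = 1.0e-10. The PBS libraries held 2 UMIs of Ccl5 between them and the cGAMP libraries 7969, so the ratio of the pooled counts was 3062, with a 95% counting interval of 847 to 25289. Cxcl9, a ligand of the chemokine receptor CXCR3 of T cells, went from 20.1 and 14.2 to 2182 and 1182 CPM (6.49 ± 0.22 SE, adjusted p = 5.7e-10). Cxcl10, another CXCR3 ligand, went from 25.9 and 15 to 857 and 645 CPM (5.17 ± 0.21 SE, adjusted p = 1.7e-09). In all of them the 2 groups were far apart. Of 17 chemokine and cytokine genes tested 6 rose and 0 fell.

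The antiviral genes followed. Rsad2 (viperin) went from 1.36 and 0 to 276 and 348 CPM (7.66 ± 0.32 SE, adjusted p = 2.1e-09). Irf7, the transcription factor that amplifies interferon production, went from 10.4 and 4.59 to 1252 and 1131 CPM (7.22 ± 0.24 SE, adjusted p = 4.2e-10). Ifit1, which binds foreign RNA, went from 3.07 and 3.42 to 352 and 414 CPM (6.50 ± 0.19 SE, adjusted p = 1.4e-10). Ifit2, Ifit3 and Zbp1, a sensor of Z-form nucleic acid, changed by 7.28, 7.03 and 6.41, and Ifit3 shares reads with its near copy Ifit3b (6.08), so the split between that pair is uncertain. The summed level of the 31 interferon genes per cell had a median of 518 and 599 CPM in the PBS libraries and 8435 and 8263 CPM in the cGAMP libraries. The 10th percentile of the cells was 4828 and 5280.3 CPM in the cGAMP libraries, above the 90th percentile of 1165 and 1069 CPM in the PBS libraries, so most venous ECs of the cGAMP libraries lay above nearly all of those after PBS.

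Genes of MHC class II, which display peptides to helper T cells, started near 0. H2-Ab1 went from 1.68 and 0.483 to 209 and 106 CPM (6.23 ± 0.36 SE, adjusted p = 4.1e-08), Cd74, the invariant chain, from 2.62 and 6.27 to 417 and 328 CPM (6.18 ± 0.28 SE, adjusted p = 3.4e-09), and their regulator Ciita changed by 3.18 ± 0.45 SE, adjusted p = 4.6e-04. Genes of complement rose as well, with 7 of 11 tested higher and 1 lower. Cfb, factor B of the alternative pathway, went from 5.23 and 5.94 to 74.2 and 62.4 CPM (3.39 ± 0.19 SE, adjusted p = 2.9e-08), and Serping1, the C1 inhibitor, from 2.86 and 0 to 85.4 and 69 CPM (5.31 ± 0.64 SE, adjusted p = 9.4e-05). Without cells carrying other-type markers Serping1 still rose, by 3.33. The complement gene that fell was Cd55 (decay-accelerating factor), from 46 and 48.8 to 27 and 29.5 CPM (-0.73 ± 0.17 SE, adjusted p = 0.019).

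The venous genes that fell included those with which the cell type meets leukocytes and platelets. Vwf went from 734 and 709 to 304 and 289.8 CPM (-1.28 ± 0.11 SE, adjusted p = 2.1e-06). Sele went from 128 and 140.1 to 73.6 and 56 CPM (-1.05 ± 0.20 SE, adjusted p = 0.00427). The prostaglandin transporter Slco2a1 went from 767 and 612 to 284 and 357 CPM (-1.10 ± 0.14 SE, adjusted p = 1.3e-04). In all of them both cGAMP libraries lay below both PBS libraries, and Ptgs1 (cyclooxygenase 1), Il1r1 (the interleukin 1 receptor), Bmp4, Tll1, Lifr and Lrg1 were also called lower.

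Beyond the venous list, the greatest falls among the named genes were those of Cytl1 and Stmn2. Cytl1, a small secreted protein, had 60 UMIs in the PBS libraries (35.4 and 15.8 CPM) and 0 in the cGAMP libraries, so it was at least 26.0-fold lower against a floor of 3 UMIs over the group. Stmn2, a microtubule regulator on the arterial list, went from 46.4 and 38.9 to 2.4 and 5.34 CPM (-3.23 ± 0.55 SE, adjusted p = 0.00207). Cmah, which makes a sialic acid, went from 60.8 and 100.03 to 21.5 and 12.8 CPM (-2.17 ± 0.26 SE, adjusted p = 9.4e-05). Ifi27 fell from 174 and 192 to 68.6 and 54.7 CPM (-1.56 ± 0.16 SE, adjusted p = 1.5e-05), while its relative Ifi27l2a went from 4.35 and 0.296 to 237 and 431 CPM (6.93 ± 0.48 SE, adjusted p = 3.0e-07). Coagulation factor V (F5), Adgrg6, the cathepsin Ctsh, Aldh2, Emp2, Afap1l2, Map3k6 and Tln2 fell by 1.46 to 2.09 on the log2 scale.

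Other lists moved less. Of 22 TNF and NF-kB genes tested 2 rose (Tnip1 and Nfkbie) and 0 fell. Of 14 haemostasis genes tested 4 fell (F5, Vwf, Nt5e and Pros1), and Plat, the tissue plasminogen activator, went from 25.9 and 29.9 to 83.1 and 64.9 CPM (1.37 ± 0.23 SE, adjusted p = 0.00203). Of 15 leukocyte adhesion genes 4 rose (Cd47, Podxl, Icam2 and F11r) and 2 fell (Sele and Jam2), while Icam1 stood at 278 and 313 and then 295 and 259 CPM and Vcam1 at 101 and 185 and then 236 and 143 CPM, with adjusted p = 0.794 and 0.478. Of 22 cell death genes 6 rose (Mlkl, Gsdmd, Casp4, Bak1, Ripk3 and Casp8), of which Mlkl, the effector of necroptosis, went from 10.9 and 10.7 to 56.2 and 47.8 CPM (2.16 ± 0.19 SE, adjusted p = 3.6e-06). Beside these groups, 3 of 9 mural genes and 2 of 3 fibroblast genes were called higher. Without cells carrying other-type markers 0 of them were, which is built in, because genes of these lists chose the cells left out.

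The count of calls moved with single libraries. It was 421 and 313 without replicates 1 and 2 of spontaneous PBS, 275 and 406 without replicates 1 and 2 of spontaneous cGAMP, and 1021 and 1046 without replicates 1 and 2 of implanted cGAMP, which enter through the shared spread. Under all alternatives Ccl5, Cxcl9, Cxcl10, Rsad2, Irf7, Ifit1, Ifit2, Ifit3, Zbp1, H2-Ab1, Cd74, Ciita, Cfb, Serping1, Vwf, Slco2a1, Ifi27, Ifi27l2a, Adgrg6, Aldh2 and Mlkl kept their calls. Calls were lost in at least 1 alternative, with the range of adjusted p over the alternatives and the setting of the highest, for Cytl1 (1.4e-07 to 0.327), Stmn2 (1.0e-07 to 0.104) and Afap1l2 (0.00144 to 0.589) with cells chosen by Cysltr1 or Masp1, Cmah (5.4e-06 to 0.056) and Sele (6.3e-05 to 0.219) with markers read at 2000 UMIs per cell, Cd55 (0.00656 to 0.172), Plat (2.0e-04 to 0.0564), Ptgs1 (5.9e-04 to 0.307) and Il1r1 (3.0e-04 to 0.25) without spontaneous cGAMP replicate 1, F5 (2.4e-04 to 0.0724) and Ctsh (1.6e-04 to 0.237) with at least 3 of the 4 markers and Emp2 (9.2e-05 to 0.232), Map3k6 (0.0115 to 0.365) and Tln2 (2.8e-04 to 0.18) without spontaneous PBS replicate 2.

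In implanted tumours the response again held all 31 interferon genes, while 17 of 29 antigen presentation genes rose and 9 of 25 venous list genes fell. Calls came to 996 of 10237 genes (9.73%), with 471 rising (4.6%) and 525 falling (5.13%), and median-of-ratios scaling made 58.1% of calls higher against 47.3%. Of the calls in both models, 369 genes were shared, which is 58.3% of the spontaneous and 37.0% of the implanted calls. Of these 250 were higher and 117 lower in both, and 2 were opposite. The 2 responses have no library in common.

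Ccl5 went from 1.57 and 0.606 to 1779 and 1592 CPM (9.69 ± 0.26 SE, adjusted p = 1.0e-10), again from PBS levels under 2 CPM. In replicate 1 of implanted cGAMP it was at 396 CPM in cells with other-type markers and at 2615 CPM in the others. The others of replicate 2 had 1573 CPM, and without such cells the change was 9.95. Rsad2 went from 4.42 and 3.98 to 494 and 393 CPM (6.41 ± 0.32 SE, adjusted p = 6.4e-08) and Irf7 from 43.6 and 37.3 to 1264 and 1286 CPM (4.95 ± 0.24 SE, adjusted p = 5.7e-08). Mx1, an antiviral GTPase, went from 0.436 and 0.313 to 63.1 and 43.3 CPM, 2 UMIs against 284, a ratio of pooled counts of 162 with an interval of 44.3 to 1340.3. Oasl1, Cmpk2 and Trim30d, further interferon targets, changed by 4.74, 4.37 and 4.80 (Trim30d with 2 UMIs after PBS and a ratio of 105, interval 28.7 to 875), and Ms4a4d and the matrix gene Tnc (tenascin C) by 4.21 and 4.42. The median interferon sum per cell was 1782 and 1174 CPM after PBS and 9700 and 9474 CPM after cGAMP. The implanted PBS libraries thus lay above the spontaneous PBS libraries, and the cGAMP libraries of both models lay close together.

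Cytokine genes rose with them, 9 of 17 tested being higher and 1 lower (Cxcl12, which was not called with median-of-ratios scaling or without cells carrying other-type markers). Csf3 went from 12.5 and 22.9 to 157 and 189 CPM (3.27 ± 0.56 SE, adjusted p = 0.00211). Il6 went from 68.8 and 42.4 to 201 and 98 CPM (1.36 ± 0.38 SE, adjusted p = 0.0376), and the monocyte chemokine gene Ccl2 from 4.5 and 4.07 to 193 and 34.3 CPM (3.97 ± 0.82 SE, adjusted p = 0.00772). Il6 and Ccl2 were higher in replicate 1 of implanted cGAMP than in replicate 2, and in that library Il6 was at 332 CPM in the cells with other-type markers and at 121 CPM in the others. Without such cells Il6 rose by 0.99 (adjusted p = 0.0489) and without the library it was not called (adjusted p = 0.161). The leukocyte genes Lyz2, Tyrobp, Fcer1g, Cd52 and Ptprc were called higher in the same comparison, 5 of 8 tested. Without cells carrying other-type markers 1 of them was, but genes of this list helped to choose those cells. Of 3 fibroblast genes Col1a1 was called higher, and not without such cells, which fibroblast genes likewise helped to choose. Of 7 lymphatic genes Lyve1, Mmrn1 and Flt4 were called higher (median of the 7 2.79), 3 also without such cells and 1 without replicate 1 of implanted cGAMP. The part of such cells in the rise of Il1b (0.313 and 0 to 12.7 and 33.1 CPM, 4.23 ± 0.91 SE, adjusted p = 0.00978), Plac8 (4.73 ± 0.66 SE, adjusted p = 4.8e-04) and Ly6c2 (4.54 ± 0.75 SE, adjusted p = 0.00181), which leukocytes also express, was not tested beyond this. The ratio of pooled counts was 97.8 for Il1b (1 UMI after PBS, interval 17.1 to 3908) and 41.0 for Ly6c2 (3 UMIs after PBS, interval 13.6 to 202). Without cells carrying other-type markers Plac8 rose by 3.73 and Ly6c2 by 4.42, and Il1b did not pass the filter on low values.

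Vwf went from 852 and 815 to 270.2 and 235 CPM (-1.72 ± 0.11 SE, adjusted p = 4.8e-07), Slco2a1 from 423 and 462 to 188 and 179 CPM (-1.26 ± 0.14 SE, adjusted p = 7.0e-05) and Ptgs1 from 179 and 163 to 46.3 and 75.3 CPM (-1.52 ± 0.20 SE, adjusted p = 3.4e-04). The other venous genes that fell were Lifr, Aplnr, Il6st, Nrp2, Lrg1 and Plvap, the gene of the diaphragms of fenestrated endothelium. Sele stood at 135 and 95.8 and then at 87.9 and 67 CPM, which was not called (log2 change -0.56, adjusted p = 0.0917). Without cells carrying other-type markers 13 of the 25 were lower, Sele among them (adjusted p = 0.0179, 0.0179 to 0.565 over the alternatives). The angiopoietin receptor Tek and its partner Tie1 fell as well, Tie1 from 192 and 194 to 97.7 and 105 CPM (-0.93 ± 0.12 SE, adjusted p = 3.7e-04). The tight-junction gene Cldn5 rose from 71.7 and 43.7 to 126 and 223 CPM (1.56 ± 0.25 SE, adjusted p = 0.00118).

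Among the named genes the greatest falls were again those of Stmn2 (119 and 139 to 17.9 and 2.59 CPM, -3.98 ± 0.55 SE, adjusted p = 4.5e-04) and Cytl1 (45.7 and 76.7 to 7.9 and 3.46 CPM, -3.26 ± 0.45 SE, adjusted p = 5.0e-04). Cygb (cytoglobin) went from 42.2 and 37.7 to 5.01 and 3.46 CPM (-2.98 ± 0.26 SE, adjusted p = 8.0e-06) and Eln (elastin) from 444 and 419.9 to 115 and 84.9 CPM (-2.11 ± 0.18 SE, adjusted p = 7.0e-06). Enpp6, Cmah, Rasgef1a, Gm525, Runx1t1, Hmcn1, AU021092 and Adamts18 fell by 1.91 to 2.99. Of 17 basement membrane and matrix genes 6 fell (Ctsh, Mgp, Col15a1, Sparcl1, Lama5 and Sparc), or 3 with median-of-ratios scaling, and 2 rose (Timp3 and Nid1). Of 14 haemostasis genes 3 fell (Vwf, Pros1 and Entpd1), and Plat went from 18.3 and 26.3 to 73.9 and 51.7 CPM (1.45 ± 0.23 SE, adjusted p = 0.00132) and Procr from 184 and 173 to 378 and 339 CPM (1.004 ± 0.12 SE, adjusted p = 1.4e-04). Of 22 cell death genes 6 rose (Pmaip1, Mlkl, Bid, Bak1, Ripk3 and Casp4). Of 22 TNF and NF-kB genes 2 rose (Tnfaip2 and Tnip1) and 2 fell (Relb and Nfkb1), or 4 and 0 with median-of-ratios scaling.

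Without replicates 1 and 2 of implanted PBS 444 and 380 genes were called. Leaving out other libraries moved the count by less than 1.5 times. In the alternatives Procr, Csf3, Runx1t1, Ccl5, Rsad2, Irf7, Mx1, Vwf, Slco2a1, Ptgs1, Tie1, Cldn5, Plac8, Ly6c2, Stmn2, Cytl1, Cygb, Eln, Enpp6, Cmah, Gm525 and Mlkl kept their calls throughout. Calls were lost in at least 1 alternative, with the range of adjusted p, for Il6 (0.00223 to 0.287), Ccl2 (8.5e-06 to 0.0689) and Il1b (0.0025 to 0.083) without implanted PBS replicate 2, Plat (8.8e-05 to 0.149), Pmaip1 (0.0116 to 0.543) and Aplnr (1.7e-04 to 0.223) with at least 3 of the 4 markers, Adamts18 (7.7e-04 to 0.0693) and Bid (0.0269 to 0.437) with markers read at 2000 UMIs per cell and Plvap (6.5e-04 to 0.0683) without implanted PBS replicate 1.

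**Figure D3:**
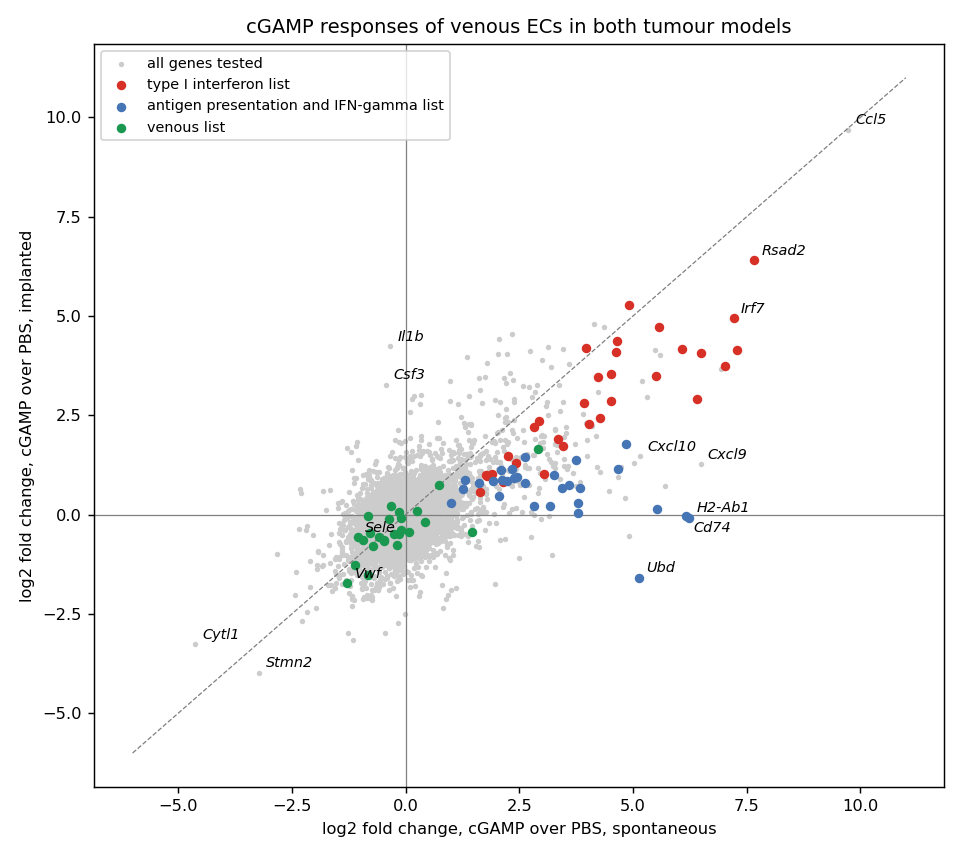
Log2 fold change of cGAMP over PBS in venous ECs of spontaneous (x axis) and implanted tumours (y axis) for all 10237 genes tested (grey), with the type I interferon, antigen presentation and venous lists coloured and the line of equal response dashed. Ccl5 lies on that line at 9.73 and 9.69, the antigen presentation genes lie below it, between 0.99 and 6.23 on the x axis and between -1.59 and 1.78 on the y axis, and Csf3 and Il1b lie high on the y axis alone.

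The responses of the 2 models were then compared directly, as the difference of the log2 changes (implanted minus spontaneous). Of 10237 genes 106 differed (1.04%), 12 with the higher value in implanted tumours (0.117%) and 94 with the lower (0.918%). Of the antigen presentation list 23 of 29 had a smaller change in implanted tumours, and of the interferon list 15 of 31. The difference uses the same libraries as the comparisons of the models given next, so they are not independent.

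Ubd, which codes for the ubiquitin-like protein FAT10, was the extreme. It stood at 0 and 0.934 CPM in spontaneous PBS, 22.3 and 102 in spontaneous cGAMP, 1237 and 1284 in implanted PBS and 444 and 393 in implanted cGAMP, with a difference of -6.73 ± 0.68 SE, adjusted p = 1.0e-04. It rose in spontaneous tumours (5.14 ± 0.48 SE, adjusted p = 6.2e-06), and its change in implanted ones was not called (-1.59 ± 0.48 SE, adjusted p = 0.0529). H2-Ab1 stood at 1.68 and 0.483 CPM in spontaneous PBS, 209 and 106 in spontaneous cGAMP, 249 and 127 in implanted PBS and 196 and 145 in implanted cGAMP, with a difference of -6.31 ± 0.51 SE, adjusted p = 1.9e-05. Only the spontaneous PBS libraries were low, and the other 6 overlapped. Cd74 stood at 2.62 and 6.27 CPM in spontaneous PBS, 417 and 328 in spontaneous cGAMP, 784 and 510.2 in implanted PBS and 716 and 532 in implanted cGAMP (-6.21 ± 0.39 SE, adjusted p = 1.9e-06), and Cxcl9 at 20.1 and 14.2 CPM in spontaneous PBS, 2182 and 1182 in spontaneous cGAMP, 1549 and 1453 in implanted PBS and 3321 and 3976 in implanted cGAMP (-5.21 ± 0.32 SE, adjusted p = 1.7e-06). H2-Aa and Serpina3g, a serpin with close relatives in the same cluster, differed by -5.38 and -5.45.

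In the other direction Csf3 stood at 9.63 and 24.5 CPM in spontaneous PBS, 25.1 and 4.7 in spontaneous cGAMP, 12.5 and 22.9 in implanted PBS and 157 and 189 in implanted cGAMP, with a difference of 3.71 ± 0.79 SE, adjusted p = 0.0401. Both implanted cGAMP libraries lay above the other 6, which overlapped. Plaur, the urokinase receptor, stood at 38.6 and 42.6 CPM in spontaneous PBS, 45.2 and 30.9 in spontaneous cGAMP, 44.8 and 42.9 in implanted PBS and 156 and 94.7 in implanted cGAMP (1.56 ± 0.33 SE, adjusted p = 0.0378), and Akap12, a scaffold of protein kinase A, at 127 and 98.3 CPM in spontaneous PBS, 67.3 and 68.1 in spontaneous cGAMP, 68.1 and 66 in implanted PBS and 191 and 109 in implanted cGAMP (1.81 ± 0.30 SE, adjusted p = 0.00679). Mlec, Ctla2b and Tuba1b differed by 1.91, 1.86 and 1.28. Csf3 and Mlec were no longer called without cells carrying other-type markers (differences of 3.24 and 1.32, adjusted p = 0.0914 and 0.55). Tie1 fell in implanted tumours and stood at 194 and 219 and 219 and 245 CPM in spontaneous ones, with a difference of -1.10 ± 0.17 SE, adjusted p = 0.0048.

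Without single libraries the count ran from 67 to 243. It was 69 without replicate 1 of spontaneous cGAMP, 67 without replicate 1 of implanted PBS, and 202 and 243 without replicates 1 and 2 of implanted cGAMP. The calls of Ubd, H2-Ab1, Cd74, H2-Aa, Serpina3g and Cxcl9 held in every alternative. Calls were lost in at least 1 alternative for Csf3 (0.00233 to 0.245) without implanted PBS replicate 1, Plaur (9.8e-04 to 0.237), Ctla2b (0.0148 to 0.534) and Tie1 (7.4e-04 to 0.0856) with cells chosen by Cysltr1 or Masp1, Akap12 (1.7e-05 to 0.0688) with no filter on low values, Mlec (0.0229 to 0.578) with markers read at 2000 UMIs per cell and Tuba1b (5.2e-05 to 0.106) without spontaneous PBS replicate 2.

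After PBS alone, venous ECs of implanted tumours already held more RNA of antigen presentation and interferon target genes than those of spontaneous tumours. Of the antigen presentation list 28 of 29 genes were higher, of the interferon list 26 of 31, and of the complement list 6 of 11. Other ECs showed the same direction. Their antigen presentation sum was 6728 and 6858 CPM in spontaneous and 18412 and 12983 CPM in implanted PBS libraries. Their interferon sum was 922 and 1059 against 2625 and 1866 CPM. Calls came to 749 genes (7.32%), with 411 at a higher (4.01%) and 338 at a lower level (3.3%) in implanted tumours, and 72.7% of calls were higher with median-of-ratios scaling against 54.9%, and that scaling moved the median of all genes from -0.08 to 0.02. The models differ in transgene, host and tumour growth at once, and these cannot be told apart.

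Ubd had 0 and 0.934 CPM in the spontaneous and 1237 and 1284 CPM in the implanted PBS libraries (9.82 ± 0.48 SE, adjusted p = 3.9e-08). The spontaneous PBS libraries held 1 UMI of it and the implanted ones 9352, a ratio of pooled counts of 6516 with an interval of 1169 to 257390. Cd74, H2-Ab1 and Cxcl9 differed by 6.95, 6.49 and 6.39. Car4, a carbonic anhydrase found in capillaries, went from 0.194 and 2.89 to 235 and 155 CPM (6.48 ± 0.86 SE, adjusted p = 3.6e-04). Vcam1, an adhesion molecule for lymphocytes and monocytes, stood at 101 and 185 CPM in spontaneous and 489 and 297 CPM in implanted PBS libraries (1.47 ± 0.30 SE, adjusted p = 0.0083). It was among 8 of 25 venous list genes that were higher, with Bst1, Vcan, Tgm2, Csf2rb, Il6st and Lrg1, against 3 lower (Aplnr, Slco2a1 and Emcn). Tmem173, the gene of STING itself, stood at 82.9 and 90 against 209.8 and 164 CPM (1.09 ± 0.19 SE, adjusted p = 0.00245). Of 22 TNF and NF-kB genes 8 were higher (Nfkbie, Gadd45b, Tnip1, Traf1, Nfkb2, Birc2, Bcl3 and Relb).

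Among the genes lower in implanted tumours were 7 of 12 immediate early genes and 4 of 10 heat shock genes (Hspa1a, Hspa1b, Dnajb1 and Hspb1), which also respond to tissue handling, and Hspa1a and Hspa1b are near copies. With median-of-ratios scaling 5 of the immediate early genes were called. Wnt5b, a Wnt ligand, stood at 24 and 27.1 CPM in spontaneous and 0 and 1.85 CPM in implanted PBS libraries (-3.97 ± 0.61 SE, adjusted p = 0.00107). The transcription factor gene Irx3 stood at 32.3 and 27 against 0.753 and 6.78 CPM (-3.05 ± 0.53 SE, adjusted p = 0.00274), and Lrrn1 and Gm1673 differed by -3.27 and -2.93. The secretoglobin gene Scgb2b27 and 2310057J18Rik stood at 9.09 and 131 and at 5.54 and 52.8 CPM after PBS in spontaneous tumours, so that replicate 2 was far above replicate 1, and at 0.814 and 1.39 and 0 and 0 CPM in implanted ones. With 0 UMIs against 81, 2310057J18Rik was at least 38.8-fold lower in implanted tumours against a floor of 3 UMIs over the group. In other ECs of the spontaneous libraries 2310057J18Rik was likewise at 3.15 and 73.9 CPM.

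Without replicates 1 and 2 of spontaneous PBS 381 and 315 genes were called, without replicates 1 and 2 of implanted PBS 240 and 400, and without replicates 1 and 2 of implanted cGAMP 1192 and 1176. The calls of Ubd, Cd74, H2-Ab1, Cxcl9, Car4, Irx3 and Gm1673 held in every alternative. Calls were lost in at least 1 alternative for Vcam1 (3.4e-04 to 0.142) and Tmem173 (2.3e-04 to 0.0606) without implanted PBS replicate 1, Wnt5b (1.2e-05 to 0.0701) and Lrrn1 (6.1e-05 to 0.159) with at least 3 of the 4 markers and Scgb2b27 (0.00497 to 0.346) and 2310057J18Rik (0.00156 to 0.218) without spontaneous PBS replicate 2.

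After cGAMP the differences between the models in the 31 tested interferon genes ran from -0.37 to 0.81 with a median of 0.14. By limma 0 of them were called (4 at an unadjusted p under 0.05), 1 with median-of-ratios scaling and 1 without cells carrying other-type markers, and of the antigen presentation list 5 of 29 were higher in implanted tumours (Ubd, Gbp2, Psme2, Psme1 and Psmb8), or 11 with median-of-ratios scaling. Still, 1158 genes (11.3%) passed, 443 with a higher (4.33%) and 715 with a lower level (6.98%) in implanted tumours, with 55.9% higher under that scaling against 38.3%, and a median of all genes of 0.01 against -0.09. Of 17 matrix genes 8 were lower (Sparcl1, Lama4, Mgp, Sparc, Hspg2, Col4a1, Col4a2 and Lamb1) and 1 higher (Fn1, fibronectin), and the difference of Mgp turned to 0.62 without cells carrying other-type markers.

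Csf3 stood at 25.1 and 4.7 CPM in spontaneous and 157 and 189 CPM in implanted cGAMP libraries (3.83 ± 0.56 SE, adjusted p = 0.00129), and Il6 at 55.2 and 22.2 against 201 and 98 CPM (1.97 ± 0.38 SE, adjusted p = 0.00569). Fjx1, a secreted protein of the planar polarity pathway, stood at 16.1 and 28.6 against 280.2 and 135 CPM (3.12 ± 0.49 SE, adjusted p = 0.00194), and Car4 at 37.3 and 1.52 against 119 and 129 CPM (3.67 ± 0.86 SE, adjusted p = 0.0161). Procr, the endothelial protein C receptor, stood at 181 and 166 against 378 and 339 CPM (1.04 ± 0.12 SE, adjusted p = 3.3e-04). In the other direction Aplnr, the apelin receptor of venous ECs, stood at 405 and 504 against 161 and 214 CPM (-1.28 ± 0.15 SE, adjusted p = 3.3e-04) and Enpp6 at 16.7 and 34.5 against 2.58 and 2.77 CPM (-2.77 ± 0.36 SE, adjusted p = 7.1e-04). Higd1b is a pericyte gene, and with Kcnj8 and Rgs5 it made 3 of 9 mural genes lower in implanted tumours. Without cells carrying other-type markers 0 were lower, but mural genes helped to choose those cells. Scgb2b27, 2310057J18Rik, Wnt5b and Tril differed by -4.96, -4.38, -3.59 and -2.79. The implanted libraries held 1 UMI each of Scgb2b27 and 2310057J18Rik after cGAMP, for ratios of pooled counts of 170 (interval 30.1 to 6740.2) and 101 (interval 17.7 to 4021) in favour of spontaneous tumours.

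Glycam1, a selectin ligand of high endothelial venules, had the greatest difference of this comparison (5.39 ± 1.08 SE, adjusted p = 0.00702) and rested on very few cells. It stood at 10.1 and 16.4 CPM in spontaneous PBS, 0.544 and 5.73 in spontaneous cGAMP, 353 and 648 in implanted PBS and 748 and 23.3 in implanted cGAMP. In replicate 1 of implanted cGAMP 9657 of its 9698 UMIs lay in 5 cells, and in replicate 2 of implanted PBS 4231 of 4636 did. Of 6 tested genes of high endothelial venules Glycam1 and Chst4 were higher and Cd34 lower. Without cells carrying other-type markers the difference of Glycam1 was 2.89 (adjusted p = 0.00219, 5.0e-07 to 0.635 over the alternatives).

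Leaving out replicate 1 of spontaneous cGAMP left 531 calls, and leaving out replicate 2 left 213. The calls of Csf3, Ubd, Fjx1, Enpp6 and Aplnr held in every alternative. Calls were lost in at least 1 alternative for Il6 (2.6e-04 to 0.0901), Car4 (4.5e-04 to 0.111), Wnt5b (2.4e-04 to 0.0678), Tril (1.3e-04 to 0.106) and Il1b (0.00595 to 0.262) without spontaneous cGAMP replicate 2, Procr (3.3e-05 to 0.0735) with cells chosen by Cysltr1 or Masp1, Scgb2b27 (0.00262 to 0.107) and 2310057J18Rik (0.0024 to 0.118) without spontaneous cGAMP replicate 1 and Higd1b (4.5e-04 to 0.0642) with markers read at 2000 UMIs per cell.

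**Figure D4:**
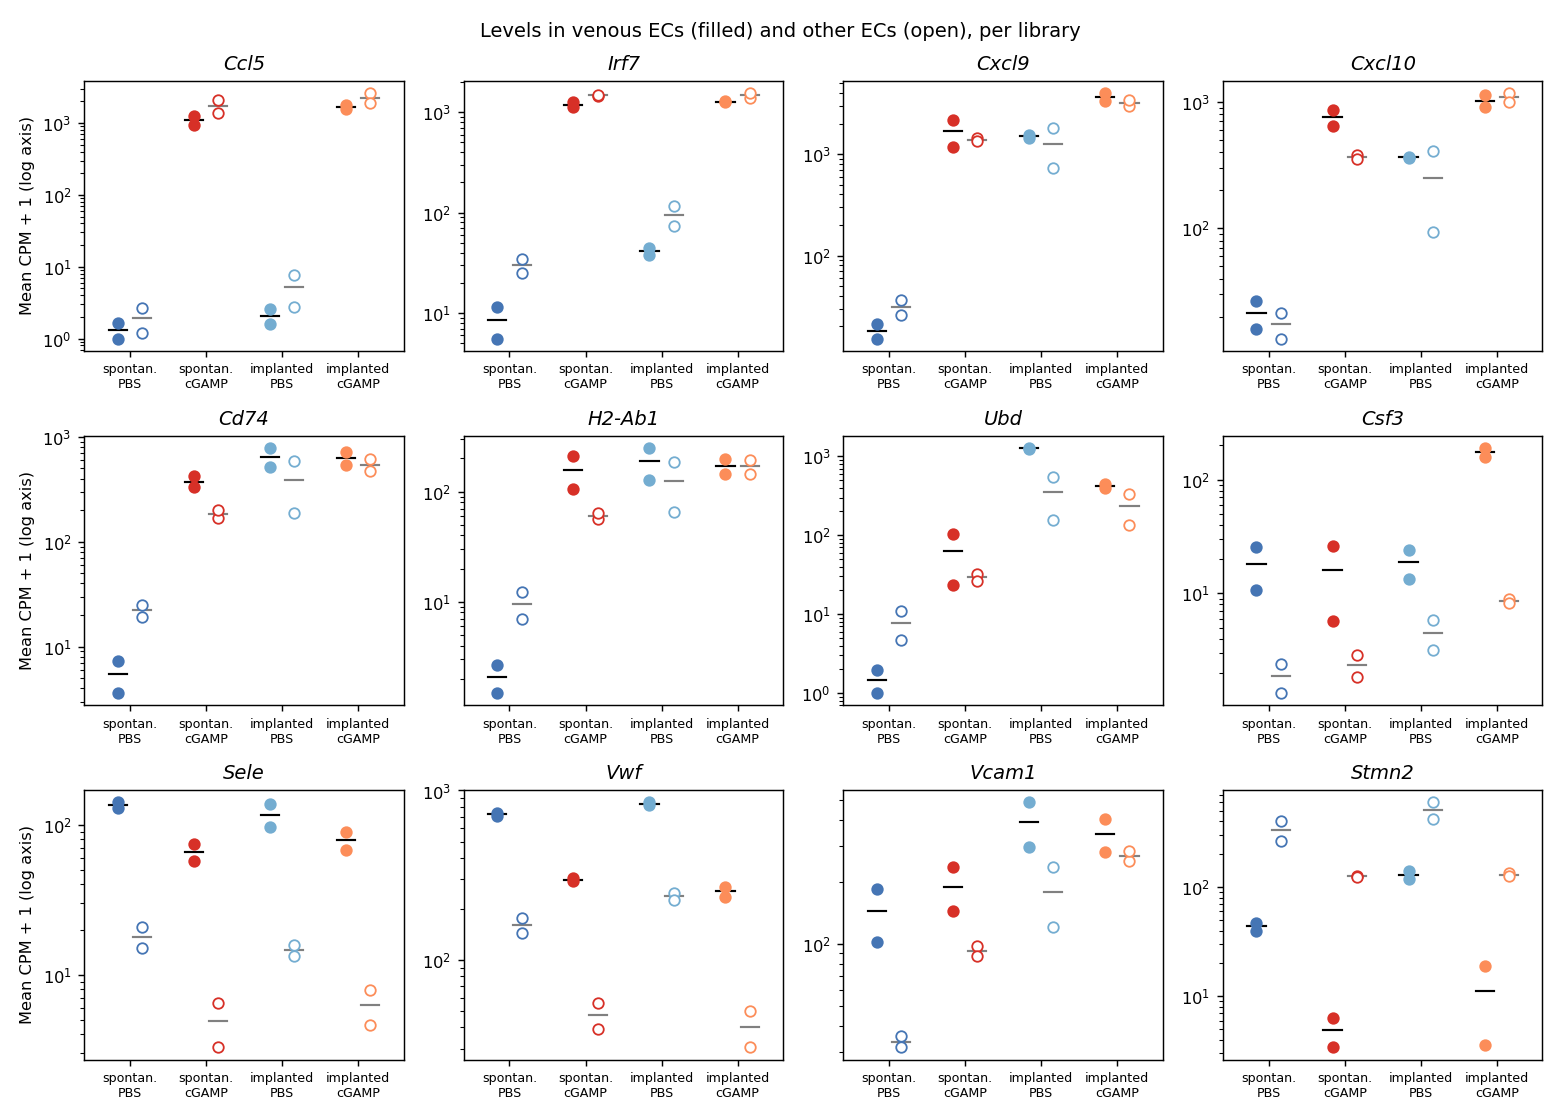
Levels of 12 genes in each library (mean CPM + 1, log axis), venous ECs filled and other ECs open, with short lines at group means of 2 libraries. Ccl5 and Irf7 are low in all PBS and high in all cGAMP libraries, Cd74, H2-Ab1 and Cxcl9 are low in spontaneous PBS alone, Csf3 is high in the venous ECs of implanted cGAMP, and Vwf is lower after cGAMP in both cell classes.

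Whether venous ECs responded unlike the other ECs of the same tumours was tested on the difference of their responses. Other ECs hold several cell types, and their list sums moved. In implanted tumours their lymphatic sum was 1053 and 715 CPM after PBS and 2483 and 2141.5 CPM after cGAMP, while in spontaneous ones it overlapped. Their arterial sum in spontaneous tumours was 3102 and 2659 CPM after PBS and 1866 and 1865 CPM after cGAMP, and it fell in implanted ones too. The part of a changed mix of cells was not tested. In spontaneous tumours 35 of 10682 genes differed (0.328%), 31 with the greater change towards higher values in venous ECs (0.29%) and 4 in other ECs (0.0374%). In implanted tumours 58 differed (0.543%), 29 each way (0.271% each). With both models averaged 82 differed (0.768%), 61 (0.571%) and 21 (0.197%), and with median-of-ratios scaling 59.0% of these were in the first direction against 74.4%. At an unadjusted p under 0.05 the counts were 843, 1369 and 1262. Of the interferon list 8 of 31 genes rose more in venous ECs in the averaged comparison (Rsad2, Ifit2, Irf7, Cmpk2, Zbp1, Ifit1, Isg15 and Ifit3). By model 7 of 31 did in spontaneous tumours and 1 of 31 (Rsad2) in implanted tumours. The median difference over the list was 0.58 and 0.04.

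Rsad2 went from 1.36 and 0 to 276 and 348 CPM in venous ECs and from 19.2 and 27.1 to 616 and 572 CPM in other ECs of spontaneous tumours. In implanted tumours it went from 4.42 and 3.98 to 494 and 393 CPM in venous and from 71.2 and 57.8 to 1099 and 939 CPM in other ECs, a difference of responses of 2.73 ± 0.27 SE, adjusted p = 2.1e-04 over both models. Venous ECs started lower in each model and ended lower too, so the larger fold started from a lower PBS level. Of the 31 interferon genes 20 were lower in venous than in other ECs in all 8 libraries. The share of all genes for which this held was not counted.

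Cxcr4, the receptor of the chemokine CXCL12 and a tip-cell gene, stood at 1.81 and 1.39 CPM in spontaneous PBS, 27.9 and 21.2 in spontaneous cGAMP, 4.85 and 3.83 in implanted PBS and 17.2 and 17.5 in implanted cGAMP in venous ECs and at 79.2 and 101 CPM in spontaneous PBS, 71.9 and 89.2 in spontaneous cGAMP, 84.8 and 69.9 in implanted PBS and 82.6 and 58 in implanted cGAMP in other ECs (2.70 ± 0.22 SE, adjusted p = 5.2e-05). It rose in venous ECs of both models (3.29 and 1.79) and stayed below the level of other ECs, where PBS and cGAMP libraries overlapped. The arterial genes Unc5b (2.38 ± 0.26 SE, adjusted p = 5.5e-04), Dll4 and Efnb2 differed in the same direction, although the difference of Efnb2 turned to -0.23 with markers read at 2000 UMIs per cell. Unc5b reached 5.68 and 3.52 and 6.52 and 6.46 CPM in venous ECs after cGAMP, against 93.7 to 160 CPM in other ECs of all libraries. Cldn5 differed by 1.15 ± 0.14 SE, adjusted p = 0.00154, and was at 43.7 to 223 CPM in venous and 847 to 1055 CPM in other ECs. Rasgrp2 and Serpinf1 differed by 2.46 and 2.38, with at most 12.8 and 2.71 CPM in venous ECs.

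In the other direction Ifi204, a sensor of DNA upstream of STING, stood at 44.7 and 59.1 CPM in spontaneous PBS, 144 and 138 in spontaneous cGAMP, 103 and 103 in implanted PBS and 178 and 145 in implanted cGAMP in venous ECs and at 10.5 and 9.22 CPM in spontaneous PBS, 94.1 and 95.7 in spontaneous cGAMP, 28.6 and 18.6 in implanted PBS and 161 and 199 in implanted cGAMP in other ECs (-1.98 ± 0.18 SE, adjusted p = 1.3e-04). Before cGAMP it was higher in venous ECs. After cGAMP it was still higher there in spontaneous tumours, while in implanted ones the classes overlapped. Stmn2 (-1.95 ± 0.36 SE, adjusted p = 0.0236) and Cmah (-1.56 ± 0.27 SE, adjusted p = 0.0148) fell by more on this scale in venous ECs, and Vcan (-1.86 ± 0.27 SE, adjusted p = 0.00443) stood at 30.9 and 30.6 CPM in spontaneous PBS, 20 and 28 in spontaneous cGAMP, 90.5 and 111 in implanted PBS and 159 and 54 in implanted cGAMP in venous ECs and at 3.12 and 2.76 CPM in spontaneous PBS, 14.5 and 7 in spontaneous cGAMP, 6.31 and 10.2 in implanted PBS and 46.6 and 18.3 in implanted cGAMP in other ECs, where it was higher after cGAMP. Cygb and Chga differed by -1.71 and -3.07. The Vwf response differed by 0.69 ± 0.14 SE, adjusted p = 0.035, so that it fell less in venous ECs on the log2 scale than in other ECs.

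In spontaneous tumours alone the named differences were H2-Ab1 (3.52), Cxcr4 (3.45), Gpx3 (3.31), Serpina3g (3.13), Cd74 (3.12) and Rsad2 (3.02), with Ltbp1, Ifi204, Fgl2 and Ifitm3 lower. Cd74 went from 2.62 and 6.27 to 417 and 328 CPM in venous ECs and from 18.4 and 24.1 to 167 and 198 CPM in other ECs, so the venous ECs passed from below to above the other ECs. Gpx3 was not called without cells carrying other-type markers (adjusted p = 0.387, 2.7e-04 to 0.421 over the alternatives). In implanted tumours alone S100a4 (2.45), Serpinf1, Unc5b, Rsad2 and Cxcr4 had the higher values in venous ECs. Ccl20, a chemokine for memory T cells and dendritic cells, had 0 to 0.92 CPM in venous ECs of all libraries and 52.6 and 109.8 CPM in other ECs of implanted cGAMP (-5.75 ± 0.90 SE, adjusted p = 0.0135). Serpinb1a, Phlda1 and the NF-kB inhibitor gene Tnfaip3 differed by -1.96, -1.80 and -1.72.

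These counts depended strongly on single libraries and settings. With no filter on low values 1, 0 and 6 genes were called, which tested 18692 genes. In the averaged comparison the count was 345 and 182 without replicates 1 and 2 of implanted cGAMP, 30 and 32 without replicates 1 and 2 of implanted PBS, 25 and 53 without replicates 1 and 2 of spontaneous cGAMP, and 46 without replicate 2 of spontaneous PBS. In implanted tumours it was 315 and 111 without replicates 1 and 2 of implanted cGAMP, 7 and 0 without replicates 1 and 2 of implanted PBS (896 at an unadjusted p under 0.05 in the second case), and 36 without replicate 1 of spontaneous cGAMP. In spontaneous tumours it was 101 and 94 without replicates 1 and 2 of implanted cGAMP, 5 and 17 without replicates 1 and 2 of spontaneous cGAMP, and 15 without replicate 2 of spontaneous PBS. Of the genes named for the averaged comparison, Cxcr4 alone kept its call in all alternatives. Calls were lost in at least 1 alternative for Rsad2 (5.3e-07 to 0.123), Cldn5 (9.7e-07 to 0.196), Rasgrp2 (1.4e-04 to 0.296), Ifi204 (9.7e-07 to 0.0542), Stmn2 (4.8e-07 to 0.321), Vcan (0.00103 to 0.204) and Cygb (8.5e-04 to 0.283) with no filter on low values, Unc5b (9.5e-05 to 0.227) with at least 3 of the 4 markers, Serpinf1 (0.00276 to 0.485) with cells chosen by Cysltr1 or Masp1 and Cmah (1.7e-05 to 0.323), Chga (6.1e-04 to 0.381) and Vwf (8.2e-04 to 0.594) with markers read at 2000 UMIs per cell.

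**Figure D5:**
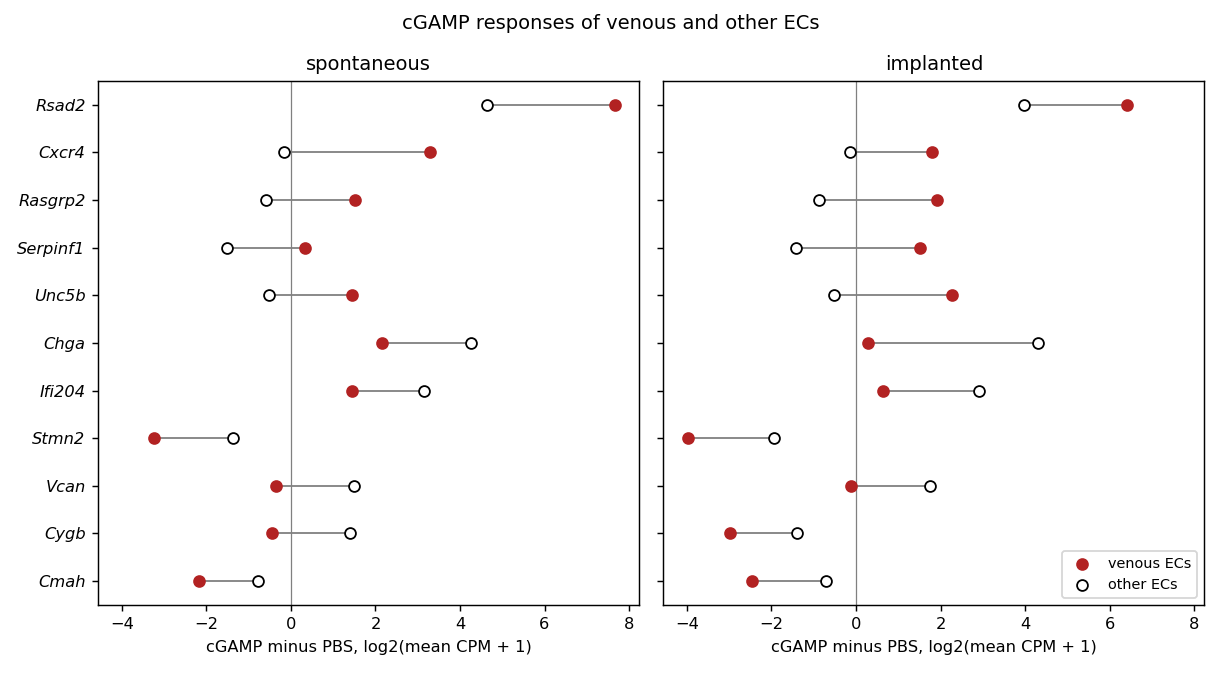
cGAMP minus PBS difference in log2(mean CPM + 1), means of 2 libraries per group, for 11 genes named in the averaged comparison, in spontaneous (left) and implanted tumours (right), with venous ECs filled and other ECs open. Rsad2 rises in both classes and further in venous ECs, Cxcr4 rises in venous ECs and lies near 0 in other ECs, and Ifi204 rises further in other ECs.

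The bases before the start sites of genes that carry these results were read for motifs. RefSeq promoter sequences (GRCm38.p6, the 250 bases before the start) matched 8036 of the 10237 tested genes by symbol. The interferon-stimulated response element was searched on both strands as GAAA, any 2 bases and GAAA, the interferon-gamma-activated site as TTCNNNGAA, and NF-kB sites by their consensus. Selp and Sele are shown as the selectins of the venous cell type, and Ubd, Cxcl10 and Rsad2 as genes of 3 patterns given above, with capitals marking motif matches, 5′ to 3′ on the strand of the gene.
Selp, chr1:164115014-164115263, plus strand: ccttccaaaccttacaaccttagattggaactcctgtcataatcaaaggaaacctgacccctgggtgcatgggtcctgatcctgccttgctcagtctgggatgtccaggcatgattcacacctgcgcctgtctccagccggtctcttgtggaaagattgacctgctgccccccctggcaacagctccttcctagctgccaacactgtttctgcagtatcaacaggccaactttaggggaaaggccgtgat
Sele, chr1:164047984-164048233, plus strand: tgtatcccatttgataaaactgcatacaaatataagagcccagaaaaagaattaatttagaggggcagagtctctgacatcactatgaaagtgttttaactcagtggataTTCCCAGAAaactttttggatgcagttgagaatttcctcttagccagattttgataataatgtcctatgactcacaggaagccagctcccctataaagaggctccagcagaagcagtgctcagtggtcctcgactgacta
Ubd, chr17:37193642-37193891, plus strand: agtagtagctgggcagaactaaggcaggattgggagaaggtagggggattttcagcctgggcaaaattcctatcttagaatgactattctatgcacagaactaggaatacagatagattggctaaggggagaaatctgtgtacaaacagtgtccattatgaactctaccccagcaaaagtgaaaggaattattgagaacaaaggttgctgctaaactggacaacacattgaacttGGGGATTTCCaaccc
Cxcl10, chr5:92348890-92349139, minus strand: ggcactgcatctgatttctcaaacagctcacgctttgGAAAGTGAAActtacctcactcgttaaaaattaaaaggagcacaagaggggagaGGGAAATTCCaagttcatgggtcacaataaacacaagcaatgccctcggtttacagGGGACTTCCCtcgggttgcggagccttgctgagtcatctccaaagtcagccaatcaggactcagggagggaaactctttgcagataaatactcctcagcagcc
Rsad2, chr12:26456453-26456702, minus strand: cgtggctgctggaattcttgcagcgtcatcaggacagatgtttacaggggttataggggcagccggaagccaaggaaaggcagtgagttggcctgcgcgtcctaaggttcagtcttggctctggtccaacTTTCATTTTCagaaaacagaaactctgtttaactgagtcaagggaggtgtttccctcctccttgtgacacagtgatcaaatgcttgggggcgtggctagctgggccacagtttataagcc

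Selp had no match to these motifs. Sele had an interferon-gamma-activated site at bases 111 to 119, counted from the 5′ end, and Ubd an NF-kB consensus at 236 to 245. Cxcl10 had an interferon-stimulated response element at 38 to 47 and NF-kB consensus matches at 92 to 101 and 148 to 157, and Rsad2 an interferon-stimulated response element at 131 to 140. That element was in 3.46% of all 27025 promoters and in 3.46% of the promoters of tested genes. It was in 15.8% (50 of 316 matched) of the genes higher after cGAMP in spontaneous tumours and in 2.42% of those lower. In implanted tumours it was in 13.3% of the genes higher and 2.7% of those lower, and in the interferon list it was in 41.7% (10 of 24 matched). The NF-kB consensus was in 4.46% of all promoters, 5.57% of those of tested genes, 10.8% of the genes higher and 6.06% of those lower in spontaneous tumours, and 8.0% of the genes higher and 6.47% of those lower in implanted tumours. A match of letters is not a measured site.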

How the data were processed

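The authors made the libraries with 10x Chromium 3′ v3 chemistry, aligned and counted with Cell Ranger 3.0.0 on mm10 and filtered in Seurat 3.1.1 (cells under 500 genes or over 10% mitochondrial UMIs, and genes in under 3 cells, removed). The deposited values are natural log values, ln(1 + 10000 × UMIs / cell total), per gene and cell, so a count model was not the test. UMIs were recovered from them (whole within 0.01), 97421522 in all.

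The cells, gene lists and tests used here were chosen with earlier results of these data known. Mean CPM per library was tested as log2(mean CPM + 1) with limma 3.58.1 (lmFit and eBayes with trend, 4 group means, R 4.3.3), over genes at 5 CPM or more in at least 2 libraries, with Benjamini-Hochberg adjustment. Venous and other ECs were compared through their differences per library. Other steps used Python 3.11.15, numpy 2.4.6, pandas 2.3.3, scipy 1.17.1 and matplotlib 3.10.9, and the fit was tested on simulated data. No doublet caller was run. Counting intervals are exact 95% intervals on pooled UMIs and cover counting error only. No source ties a library to a mouse, so p-values measure the spread between these libraries.

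Named genes were, for each cGAMP response, the 12 called genes with the greatest change in each direction, at 20 CPM or more in the higher group and without overlap of libraries, apart from the 14 genes of the rule, and 6 per direction for the other comparisons. The 25 highest and 10 lowest genes described venous against other ECs. The highest had a mean of 20 CPM or more in venous ECs and were higher there in all 8 libraries. The lowest had a mean of 20 CPM or more in other ECs and were lower in venous ECs in all 8 libraries. Members of the lists were named with their counts, and list genes singled out with values were chosen after those values were seen. Results of some genes are not reported here, and these genes stay in the fits and list counts. The alternatives were a pseudocount of 5 CPM, no filter, median-of-ratios scaling, UMIs summed over cells, at least 3 markers, Cysltr1 or Masp1 as the marker, markers read at 2000 UMIs per cell, weights by number of cells, a replicate block and each library left out. Leaving out cells with 3 or more mural, fibroblast or leukocyte markers was chosen after seeing the data. Gene positions are from GENCODE vM21 (GRCm38) and promoters from RefSeq (GRCm38.p6).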

Additional observations from a re-analysis of the deposited data

Results flagged for a closer look

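A test of the difference itself singled out the following genes, and the causes were not tested. Between the models (implanted minus spontaneous, log2 difference of the cGAMP responses of venous ECs, limma) the difference was 3.71 for Csf3, 1.91 for Mlec, 1.86 for Ctla2b, 1.81 for Akap12, 1.56 for Plaur and 1.28 for Tuba1b. It was -6.73 for Ubd, -6.31 for H2-Ab1, -6.21 for Cd74, -5.45 for Serpina3g, -5.38 for H2-Aa and -5.21 for Cxcl9.

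Between venous and other ECs, with both models averaged, the response of venous ECs was higher by 2.73 for Rsad2, 2.70 for Cxcr4, 2.46 for Rasgrp2, 2.385 for Serpinf1 and 2.38 for Unc5b. The difference was -3.07 for Chga, -1.98 for Ifi204, -1.95 for Stmn2, -1.86 for Vcan, -1.71 for Cygb and -1.56 for Cmah. Groups of 2 libraries are too small for a test of single outlying libraries.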

How the results depend on the processing

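Depth and 2 libraries per group limit these counts, and the causes of the shifts were not tested unless the setting itself tests fewer or more genes or cells. For the 3 comparisons of venous with other ECs (spontaneous, implanted, averaged) no filter on low values gave 1, 0 and 6 calls by limma, with 1231, 1780 and 1698 genes at an unadjusted p under 0.05. It gave 662 for the implanted response, 64 for the difference of responses, 430 for the models after PBS and 712 after cGAMP. UMIs summed over cells gave 1206 for the spontaneous response, 182 for the difference, 1338 after PBS, and 164 and 259 for the implanted and averaged comparisons with other ECs. Markers read at 2000 UMIs per cell gave 357 for the spontaneous response, 368 after PBS, and 15, 13 and 27 against other ECs. At least 3 markers gave 325 after PBS, 609 after cGAMP, and 14 and 26 against other ECs in spontaneous and implanted tumours. Cysltr1 or Masp1 as the marker gave 58 for the difference, 379 after PBS and 439 after cGAMP. Weights by number of cells gave 1768 for the implanted response, 206 for the difference, 2027 after cGAMP, and 264 and 200 for the implanted and averaged comparisons with other ECs. A pseudocount of 5 CPM gave 21 against other ECs in spontaneous tumours. Leaving out cells with other-type markers, chosen after seeing the data, gave 112 and 160 for the implanted and averaged comparisons.

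Leaving out each library in turn, the counts ran from 275 to 1046 (spontaneous response), 380 to 1207 (implanted response), 67 to 243 (difference), 240 to 1192 (after PBS), 213 to 1526 (after cGAMP), and 5 to 101, 0 to 315 and 25 to 345 (against other ECs, in spontaneous, implanted and both). The highest counts for the implanted response and after cGAMP were those without implanted cGAMP replicate 2. With the replicate block the counts were 657, 1035, 122, 788, 1202, 40, 59 and 103 in the same order. Deviations of same-numbered libraries correlated at -0.078 to 0.068, 0 of 6 over 0.1, so no sign of pairing by number was seen. A shared batch was not tested.

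Of 636 single-gene results 276 kept their call in every alternative and 360 lost it in at least 1. Reversals were those of Efnb2 (-1.004) and Fxyd6 (-1.02) in the implanted and Efnb2 (-0.23) in the averaged comparison with other ECs with markers read at 2000 UMIs, and of Mgp after cGAMP without cells with other-type markers (0.62).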
